A study of Mus musculus with 9 samples.

Results

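The genes described here are 35 genes of fatty acid metabolism and lipid droplets, chosen by name for their roles in the breakdown, synthesis, remodelling and storage of fatty acids. A probe set naming the gene alone was found for 33 of the 35, among 19938 genes tested, and Acsl1 and Acsl3 were not analysed here. Where a gene had several probe sets, the brightest over all arrays was used. Expression was measured on Affymetrix mouse gene arrays in low-density bone marrow (LDBM) cells, the light fraction of marrow that is rich in blood progenitors, from pooled marrow of Balb/c mice. All cells were first grown for 4 days with stem cell factor (SCF) and FLT3 ligand (FLT3L), both at 100 ng/mL, which expand progenitors. The 3 groups were cells taken before interleukin 5 (IL-5), the cytokine that drives eosinophil formation, and cells after 4 and after 10 days with IL-5, with 3 arrays each. The labels give no age, no genotype beyond the strain and no IL-5 dose, and do not tell whether SCF and FLT3L stayed in the medium with IL-5. Nor do they tell whether the arrays of a group hold separate cultures, so p-values reflect array-to-array spread alone, and that spread may be technical. No culture of the same age without IL-5 was analysed here, so IL-5 and days in culture cannot be told apart.

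Fatty acids enter cells by transport proteins and are activated to coenzyme A (CoA) esters by acyl-CoA synthetases. The esters are either burned in mitochondria by beta-oxidation, a cycle of dehydrogenation, hydration, dehydrogenation and cleavage, or built into membrane lipids and into the triglycerides stored in lipid droplets. New fatty acids are made in the cytosol from citrate-derived acetyl-CoA and are then elongated and desaturated. In granulocytes, droplets also hold arachidonic acid, the precursor of the lipid mediators that eosinophils release. Peroxisome proliferator-activated receptors (PPARs) are nuclear receptors that sense fatty acids and regulate many of these genes.

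Values are log2 signals per probe set, so a difference of 1 is a 2-fold change. Rises and falls are those for which limma's two-sided test, with Benjamini-Hochberg adjustment over all 19938 genes, gave an adjusted p under 0.05 and the change was at least 2-fold. At day 4 against before IL-5, 3 of the 33 measured members rose and 0 fell, where 5.53% of all genes passed, 3.42% rising and 2.11% falling. At day 10 against before IL-5, 3 rose and 5 fell, where 14.2% of all genes passed, 4.83% rising and 9.4% falling. From day 4 to day 10, 1 rose and 4 fell, where 6.42% of all genes passed, 2.44% rising and 3.98% falling. The members' median log2 change was -0.04 for day 4, -0.13 for day 10 and -0.26 from day 4 to day 10, beside -0.11, -0.07 and 0.02 over all genes. In all, 12 members passed in at least 1 comparison and 21 in none, where 16.9% of all genes passed in at least 1.

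Smaller changes were common. At day 4, 19 members passed by adjusted p alone, without the fold limit, with 10 higher and 9 lower, where 31.5% of all genes did, 11.5% higher and 20% lower. At day 10, 24 passed in this way, with 8 higher and 16 lower, where 42.3% of all genes did, 14.8% higher and 27.6% lower. From day 4 to day 10, 21 passed, with 5 higher and 16 lower, where 31.9% of all genes did, 11.7% higher and 20.2% lower. The arrays of both groups did not overlap in 24 members at day 4, 25 at day 10 and 24 from day 4 to day 10, beside 43.6%, 49.7% and 44.2% of all genes. Members spread less within groups, with median SDs of 0.092, 0.075 and 0.116 over the 3 times in order, where all genes had 0.13, 0.117 and 0.131. All members but Ppara also had a mean signal above 6.01, the median of gene means. Small changes pass more easily where spread is low. Whether other genes of like brightness and spread would give the same shares was not tested. Arrays of 8 members fell in steps without overlap over the 3 times, namely Acsl5, Acads, Hadha, Hadhb, Hadh, Echs1, Fasn and Elovl6, a course seen in 12.6% of all genes. Those of Acsl4, Lipe and Mgll rose in steps, as did 5.33% of all genes. In 6 members, Scd2, Fads2, Dgat2, Plin2, Plin3 and Pparg, every day 4 array lay above every array of both other times, which 6.21% of all genes showed.

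**Figure D1:**
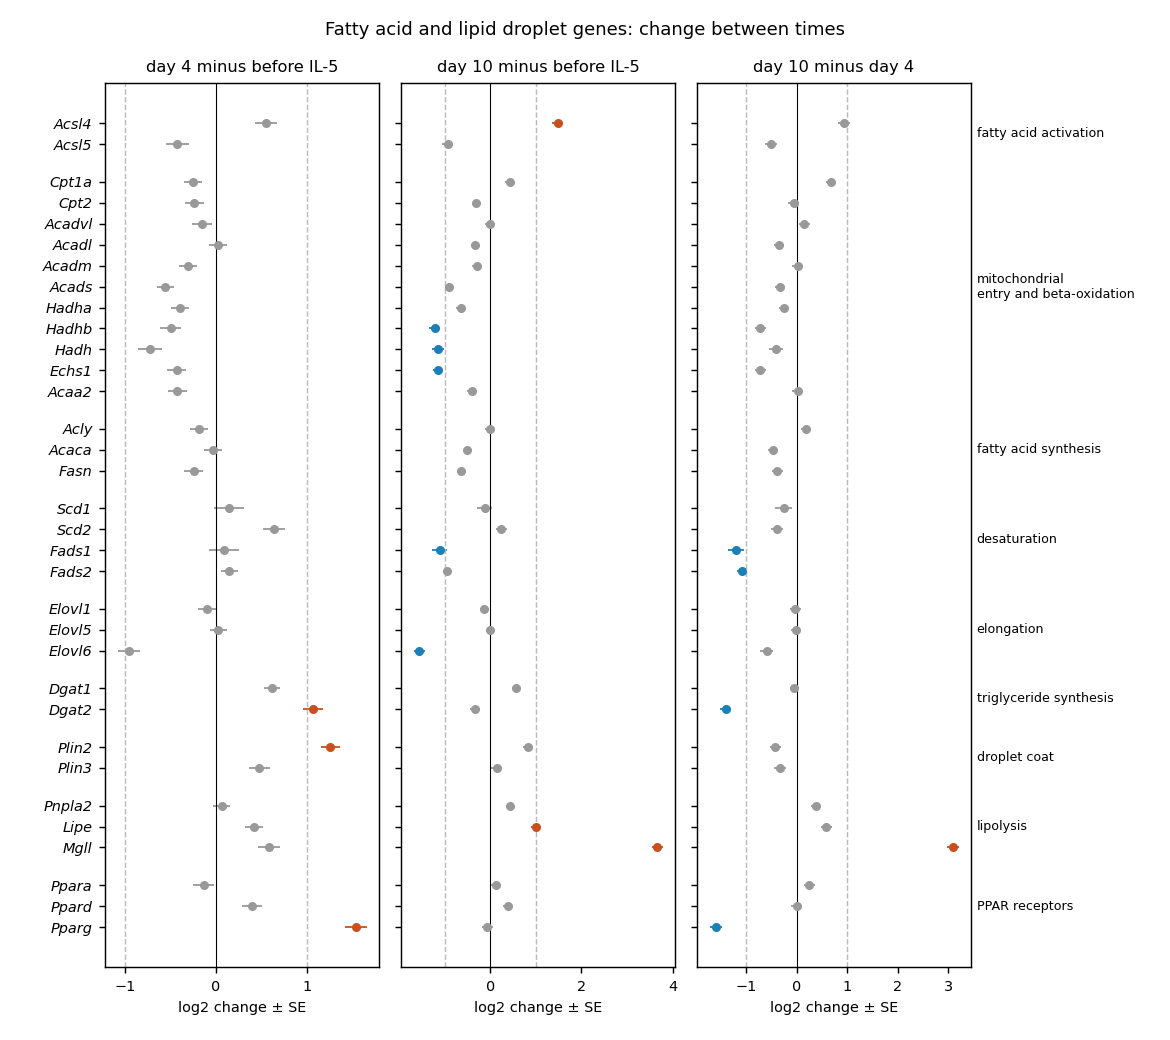
Log2 change of each of the 33 measured members (x axis, with the standard error from limma) in the 3 comparisons, ordered by role on the y axis. Orange points rose and blue points fell by the test, grey points did not pass, and dashed lines mark a 2-fold change; Mgll stands farthest right at day 10 (3.66) and Elovl6 farthest left (-1.56).

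All 6 eosinophil markers (Epx, Prg2, Prg3, Ccr3, Siglecf, Il5ra) rose, and their mean log2 signal was 7.21 to 7.39 before IL-5, 9.90 to 10.02 at day 4 and 12.07 to 12.12 at day 10. Markers of other cells were high at day 4 too: the mean of 11 macrophage markers was 9.03 to 9.12 then, against 6.50 to 6.71 before IL-5, and that of 10 dendritic cell markers was 8.38 to 8.50, against 6.96 to 7.09. In these bulk samples, fewer cells of a type and less RNA per cell cannot be told apart. Array medians lay between 5.67 and 5.75, and arrays of a group correlated at 0.991 to 0.996 across genes. Of the day 10 arrays, replicate 3 had the highest value for 23 of the 33 members (69.7%, against 46% of all genes) and the highest macrophage marker mean, 9.36 against 8.59 and 8.38. No detection calls were used, and the lower quartile of gene means, 4.66, serves as a reference for dim genes, whose changes are compressed.

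Of all members, the lipolysis gene Mgll showed the largest change. Triglyceride is broken down by adipose triglyceride lipase (Pnpla2), hormone-sensitive lipase (Lipe) and monoglyceride lipase (Mgll), which act in that order, and Mgll also cleaves the endocannabinoid arachidonoylglycerol. At day 10, 2 of the 3 rose, Mgll and, at the fold limit, Lipe, and 0 fell. Over all genes, 4.83% rose and 9.4% fell then. The promoter window of Mgll is shown because Mgll rose most of all members. The one of Elovl6, an elongase, is shown because it fell most at day 10. That of the droplet coat gene Plin2, which rose at day 4, was added after its values were seen. Pparg rose more at day 4 (1.54, against 1.26 for Plin2), but its window is not shown. The window of Hadhb, which fell, lies between the starts of that gene and Hadha, which encode subunits of a single enzyme complex. Each gives the 250 bases before a RefSeq start, 5′ to 3′, with the motifs found in capitals. For Mgll, which had 2 windows, only the one of the start farthest upstream is shown.
Mgll, GRCm38.p6 chr6:88724162-88724411, plus strand: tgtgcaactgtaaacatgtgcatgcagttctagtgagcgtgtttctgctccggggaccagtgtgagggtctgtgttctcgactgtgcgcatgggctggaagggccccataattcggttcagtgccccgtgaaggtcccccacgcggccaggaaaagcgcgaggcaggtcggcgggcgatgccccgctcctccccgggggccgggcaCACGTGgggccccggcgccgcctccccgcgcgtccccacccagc
Elovl6, GRCm38.p6 chr3:129532136-129532385, plus strand: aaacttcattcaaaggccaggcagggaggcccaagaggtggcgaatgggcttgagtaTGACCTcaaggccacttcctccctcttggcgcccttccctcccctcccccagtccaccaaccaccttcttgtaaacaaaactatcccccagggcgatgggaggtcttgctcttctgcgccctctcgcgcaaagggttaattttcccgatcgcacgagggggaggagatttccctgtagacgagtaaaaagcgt
Plin2, GRCm38.p6 chr4:86670060-86670309, minus strand: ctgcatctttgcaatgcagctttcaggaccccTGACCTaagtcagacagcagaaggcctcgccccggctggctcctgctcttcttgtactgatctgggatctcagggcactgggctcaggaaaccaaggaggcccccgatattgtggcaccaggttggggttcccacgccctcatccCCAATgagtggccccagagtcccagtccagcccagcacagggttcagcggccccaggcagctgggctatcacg
Hadhb, GRCm38.p6 chr5:30155003-30155252, plus strand: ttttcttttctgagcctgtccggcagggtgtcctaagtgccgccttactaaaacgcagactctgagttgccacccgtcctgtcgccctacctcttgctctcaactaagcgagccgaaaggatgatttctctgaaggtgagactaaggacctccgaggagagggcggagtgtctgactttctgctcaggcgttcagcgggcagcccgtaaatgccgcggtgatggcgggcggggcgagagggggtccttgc

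Windows of this kind were found in the RefSeq table (GRCm38.p6) for 29 of the 35 members. Where a gene had several, as Acsl1, Elovl1, Lipe, Mgll and Pparg did, only that of the start farthest upstream was searched. They were searched on both strands for AGGTCA, the hexamer that nuclear receptors bind, for a direct repeat of that hexamer spaced by 1 base (DR1), the element of PPAR with retinoid X receptor, for TCACNCCAC, a core of the sterol regulatory element, for the E-box CACGTG and for CCAAT, the NF-Y motif. AGGTCA was found in 8 member windows (27.6%, against 13.8% of 27025 windows of all genes), those of Elovl6, Plin2, Pparg, Acly, Echs1, Cpt1a, Acadm and Acadvl. CACGTG was in 3 (Mgll, Lipe and Elovl5; 10.3%, against 6.04%) and CCAAT in 10 (34.5%, against 34.5%). DR1 and TCACNCCAC were in 0 member windows and in 0.037% and 1.03% of all. In the sequences above, CACGTG begins 44 bases before the start of Mgll, AGGTCA lies on the opposite strand 193 bases before that of Elovl6 and 218 before that of Plin2, and CCAAT 73 before that of Plin2. The window of Hadhb held none of the 5 motifs. A match is a match of letters only.

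Mgll read 6.02, 6.12 and 6.09 before IL-5, 6.59, 6.83 and 6.56 at day 4 and 9.78, 9.92 and 9.53 at day 10. The 3 day 10 arrays stood far above the 6 others, and the day 4 arrays lay above those before IL-5. The rise at day 10 was 12.7-fold, a log2 change of 3.66 ± 0.12 (SE) with a limma adjusted p of 1.28e-10, and most of it came after day 4 (log2 change of 3.08 ± 0.12 (SE) from day 4 to day 10, adjusted p = 1.63e-09). At day 4 the difference was 0.58, under the fold limit. Over the 16 alternative settings and left-out arrays, the day 10 change of Mgll was called in every one.

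Lipe read 7.53, 7.60 and 7.70 before IL-5, 8.12, 8.02 and 7.95 at day 4 and 8.64, 8.49 and 8.71 at day 10. Groups did not overlap at any step, with the highest values at day 10. Its log2 change at day 10 of 1.00 ± 0.10 (SE) (limma adjusted p = 2.74e-06) lay at the 2-fold limit, and the call was lost when replicate 1 (0.965) or 2 (0.999) of the starting cells, or day 10 replicate 1 (0.989) or 3 (0.955), was left out. Pnpla2, which starts lipolysis, was at 7.93 ± 0.051 (SD, n = 3) before IL-5 and 8.37 ± 0.019 (SD, n = 3) at day 10, a difference of 0.44 that passed adjusted p (0.00155) and not the fold limit. Its coactivator Abhd5 was 0.66 higher at day 4 (adjusted p = 0.000307) and 0.44 higher at day 10, under the fold limit both times. Its inhibitor G0s2 was 0.86 higher at day 4 (adjusted p = 5.32e-05), also under the fold limit, and differed by 0.24 at day 10, where adjusted p was 0.0962.

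Among the acyl-CoA synthetases, which trap fatty acids in the cell as CoA esters, Acsl4 and Acsl5 had opposite courses. Acsl4, which prefers arachidonic acid, read 8.65, 8.89 and 8.52 before IL-5, 9.32, 9.11 and 9.27 at day 4 and 10.02, 10.22 and 10.25 at day 10. The 3 groups did not overlap and day 10 was highest. It rose 2.79-fold at day 10, a log2 change of 1.48 ± 0.12 (SE) (limma adjusted p = 3.19e-07), with 0.55 at day 4 and 0.93 between the days, the latter passing, at 1.003, once day 10 replicate 1 was left out. Acsl5, an isoform of mitochondria and endoplasmic reticulum, read 10.28, 10.63 and 10.21 before IL-5, 9.88, 9.93 and 10.02 at day 4 and 9.36, 9.35 and 9.59 at day 10, falling without overlap. Its change at day 10 was -0.93 ± 0.12 (SE), short of the fold limit, but at -1.02 without replicate 3 before IL-5 and at -1.01 without day 10 replicate 3 it passed.

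Most mitochondrial beta-oxidation genes lay lower after IL-5. At day 10, 0 of 11 rose and 3 fell, where 4.83% of all genes rose and 9.4% fell. At day 4, 10 of the 11, all but Acadl, had a log2 change below 0, as had 13377 of all 19938 genes. The median over the 11 was -0.40, beside -0.11 over all genes, and 0 of the 11 passed the fold limit. At day 10 the median was -0.41, beside -0.07 over all genes. Of the 11, 10 lay below 0 then, all but Cpt1a, where 11659 of all 19938 genes did. The genes that fell were Hadhb, encoding the thiolase-bearing subunit of the trifunctional protein, Hadh, the hydroxyacyl-CoA dehydrogenase for shorter chains, and Echs1, the short-chain enoyl-CoA hydratase.

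Hadhb read 10.33, 10.35 and 10.13 before IL-5, 9.83, 9.68 and 9.80 at day 4 and 8.98, 8.90 and 9.26 at day 10. All day 10 arrays lay below all day 4 arrays, and these below all arrays before IL-5. The change at day 10 was -1.22 ± 0.12 (SE), a 2.33-fold fall (limma adjusted p = 1.45e-06), and its other probe set gave -1.17. Hadha encodes the partner subunit, with the hydratase and dehydrogenase of long chains, and its start lies 272 bases from that of Hadhb on the opposite strand, so that both are read outward from the stretch printed above. Hadha was at 10.21 ± 0.092 (SD, n = 3) before IL-5 and 9.56 ± 0.13 (SD, n = 3) at day 10, a change of -0.65 ± 0.10 (SE) under the fold limit. The difference between the changes of the subunits was not tested.

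Hadh read 9.51, 9.67 and 9.53 before IL-5, 8.99, 8.81 and 8.73 at day 4 and 8.24, 8.34 and 8.72 at day 10. Day 10 replicate 3 stood above the other day 10 arrays, close to the lowest day 4 array. Its change at day 10 was -1.14 ± 0.13 (SE) (limma adjusted p = 8.43e-06), and -0.73 was already present at day 4. Echs1 read 8.92, 8.93 and 8.87 before IL-5, 8.57, 8.43 and 8.43 at day 4 and 7.66, 7.69 and 7.92 at day 10, with no overlap at either step. Its change at day 10 was -1.15 ± 0.10 (SE) (adjusted p = 8.05e-07), the larger share of it between day 4 and day 10 (-0.72).

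The acyl-CoA dehydrogenases, which open the cycle and differ in the chain length they take, did not pass the fold limit. The short-chain enzyme Acads had the largest change, -0.90 at day 10 (adjusted p = 3.61e-06), going from 8.62, 8.50 and 8.56 before IL-5 to 7.71, 7.61 and 7.67. The medium-chain Acadm (-0.29), long-chain Acadl (-0.33) and very-long-chain Acadvl (-0.01) stood closer to their starting levels, and arrays of Acadvl overlapped in every comparison. The thiolase gene Acaa2 was at -0.41. Carnitine palmitoyltransferase 1a (Cpt1a), the gate through which long chains enter mitochondria, was the 1 gene of the 11 above its start at day 10. It read 8.51, 8.73 and 8.51 before IL-5, 8.31, 8.38 and 8.32 at day 4 and 8.96, 8.96 and 9.10 at day 10. Its day 10 arrays lay above all others, by 0.42 ± 0.10 (SE) over the cells before IL-5 (adjusted p = 0.00344) and by 0.68 over day 4, without reaching 2-fold. Cpt2, which releases the chains inside, stood at -0.30.

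Of 20 other measured genes of mitochondrial oxidation and ketone metabolism, 8 fell and 0 rose at day 10, with a median of -0.81, against 9.4% of all genes falling. They included the acyl-CoA dehydrogenase Acad9, also a complex I assembly factor (-1.58), the dienoyl-CoA reductase Decr1 (-1.42), the isobutyryl-CoA dehydrogenase Acad8 (-1.28) and the hydroxyacyl-CoA dehydrogenase Hsd17b10 (-1.21). After quantile normalization 5 fell and 1, the short branched-chain dehydrogenase Acadsb (1.04), rose. At day 4, 0 of the 20 passed the fold limit, with a median of -0.39. Among 20 measured peroxisomal genes, which shorten very long and branched chains, 2 rose and 2 fell at day 10. Over all genes, 4.83% rose and 9.4% fell then. The bifunctional enzyme Ehhadh (1.49) and the sterol carrier protein Scp2 (1.18) rose, and the reductase Pecr (-1.38) and the transporter Abcd3 (-1.20) fell.

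Enzymes of new fatty acid synthesis did not pass the fold limit in any comparison. ATP citrate lyase (Acly), which makes cytosolic acetyl-CoA, was at 9.94 ± 0.10 (SD, n = 3) before IL-5 and 9.92 ± 0.087 (SD, n = 3) at day 10. Acetyl-CoA carboxylase (Acaca), the committed step, stood -0.50 from its starting level at day 10 (adjusted p = 0.000878), and its other probe set gave -0.37. Fatty acid synthase (Fasn) read 9.48, 9.64 and 9.57 before IL-5, 9.24, 9.30 and 9.40 at day 4 and 8.97, 9.04 and 8.78 at day 10, in steps without overlap, with a change of -0.63 ± 0.10 (SE) at day 10 (adjusted p = 0.000218).

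The desaturases introduce unsaturation: Scd1 and Scd2 act on saturated chains, and Fads1 and Fads2 on polyunsaturated ones on the way to arachidonic acid. Between day 4 and day 10 Fads1 and Fads2 both fell. Fads1 read 9.52, 9.66 and 9.61 before IL-5, 9.72, 9.74 and 9.59 at day 4 and 8.08, 8.46 and 8.92 at day 10. The day 10 arrays lay below the rest but spread from 8.08 to 8.92, the widest SD of any member in any group (0.42). The change from day 4 to day 10 was -1.20 ± 0.16 (SE) (limma adjusted p = 9.56e-05), and without day 10 replicate 1 it stood at -0.999 and just missed the limit. Against the cells before IL-5 it was -1.11 ± 0.16 (SE) (adjusted p = 8.65e-05), and this call was lost without day 10 replicate 1 (-0.91) and after quantile normalization (-0.998).

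Fads2 read 9.35, 9.36 and 9.28 before IL-5, 9.44, 9.47 and 9.52 at day 4 and 8.34, 8.48 and 8.34 at day 10. Its day 10 arrays were close together and far below the others, with a change of -1.09 ± 0.092 (SE) from day 4 (limma adjusted p = 1.44e-06) and -0.95 from before IL-5, the latter short of 2-fold. Fads1, Fads2 and Fads3 lie next to each other in the RefSeq gene table. Fads3 fell too, reading 8.25, 8.16 and 7.98 before IL-5, 7.53, 7.90 and 7.75 at day 4 and 6.09, 6.41 and 6.46 at day 10, a change of -1.81 ± 0.13 (SE) at day 10 (adjusted p = 1.36e-07).

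Scd2 was higher at day 4, at 11.16, 11.06 and 11.20 against 10.52, 10.40 and 10.60 before IL-5, by 0.64 ± 0.12 (SE) (adjusted p = 0.00126), and ranged from 10.52 to 10.98 at day 10. Scd1 overlapped in every comparison and ranged from 6.18 to 6.95 at day 10, with replicate 3 highest. The Scd genes are close paralogues, and an array can mix their signals.

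Of the elongases, which add carbons to fatty acids, Elovl6 changed and the other two did not pass. Elovl6 extends saturated and monounsaturated chains and read 9.09, 8.90 and 9.32 before IL-5, 8.15, 8.09 and 8.18 at day 4 and 7.51, 7.41 and 7.72 at day 10. Every array fell below those of the time before. It fell 2.94-fold by day 10, a log2 change of -1.56 ± 0.12 (SE) (limma adjusted p = 2.59e-07), of which -0.96 was present at day 4, or -1.06, past the limit, without replicate 2 before IL-5. Elovl5, which extends polyunsaturated chains, was at 10.51 ± 0.032 (SD, n = 3), 10.53 ± 0.069 (SD, n = 3) and 10.51 ± 0.050 (SD, n = 3) at the 3 times. Elovl1, for very long saturated chains, was at 9.96, 9.85 and 9.83.

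Of 28 other genes of synthesis and elongation, 3 rose and 6 fell at day 10, where 4.83% of all genes rose and 9.4% fell. Hacd4, of the dehydratase family of the elongation cycle, rose by 3.38, and the acetyl-CoA synthetases Acss1 and Acss2, which make acetyl-CoA from acetate, by 1.41 and 1.36. Besides Fads3, the falls included the mitochondrial fatty acid synthesis enzymes Mecr (-1.77) and Mcat (-1.40) and the dehydratase Hacd1 (-1.45). At day 4, Hacd4 (1.73) and the liver X receptor gene Nr1h3 (1.14) rose, and 0 of the 28 fell. Over all genes, 3.42% rose and 2.11% fell at day 4.

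**Figure D2:**
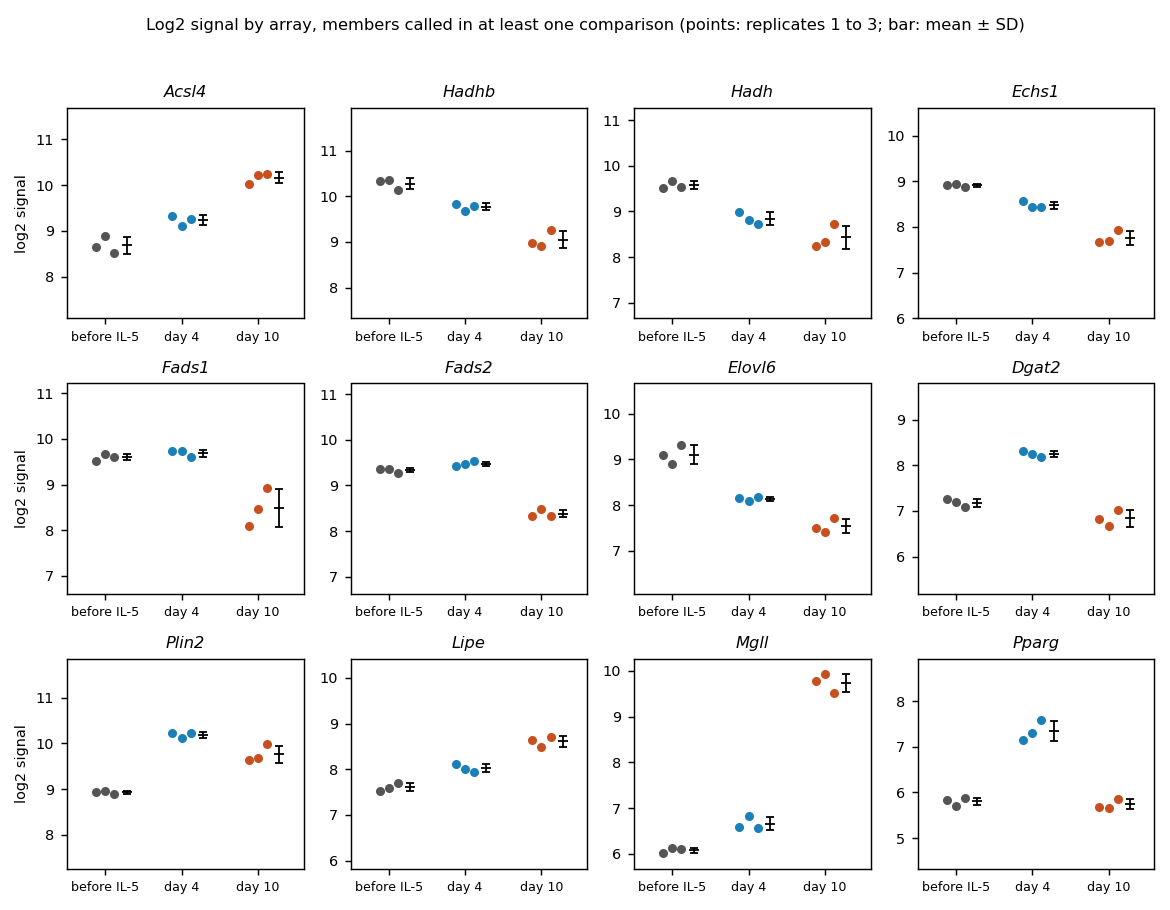
Log2 signal (y axis, the same span of 4.6 in every panel) in each of the 9 arrays for the 12 members that passed in at least 1 comparison, with replicates 1 to 3 left to right in each group and the mean ± SD beside them. Mgll is far higher at day 10, Pparg and Dgat2 are high at day 4 only, and Elovl6, Hadhb and Echs1 fall in steps.

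Of the 2 genes of triglyceride synthesis and the 2 of droplet coats, 1 each rose at day 4 (Dgat2 and Plin2), where 3.42% of all genes did. At day 10, 0 of them rose, where 4.83% of all genes did. Triglyceride is completed by the diacylglycerol acyltransferases Dgat1 and Dgat2, and the perilipins Plin2 and Plin3 coat the droplets that hold it. Dgat2 read 7.25, 7.19 and 7.08 before IL-5, 8.32, 8.24 and 8.18 at day 4 and 6.82, 6.66 and 7.03 at day 10. All day 4 arrays lay above those before IL-5, and all day 10 arrays below both. It rose by 1.07 ± 0.11 (SE) at day 4 (limma adjusted p = 1.06e-05) and fell by day 10 against day 4 with a change of -1.41 ± 0.11 (SE) (adjusted p = 7.98e-07). Dgat1 was higher at both days, by 0.62 and 0.57, under the fold limit each time.

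Plin2 read 8.95, 8.96 and 8.88 before IL-5, 10.23, 10.12 and 10.22 at day 4 and 9.63, 9.68 and 9.98 at day 10. Day 4 was highest, and day 10 lay between, apart from both. The rise at day 4 was 2.4-fold, a log2 change of 1.26 ± 0.11 (SE) (limma adjusted p = 2.3e-06). At day 10 it was 0.83 ± 0.11 (SE) above the start (adjusted p = 2.67e-05), which did not reach 2-fold. Plin3 was highest at day 4 too, by 0.48 over the start, and its day 10 arrays (0.14) overlapped those before IL-5, neither change reaching the limit. Of 21 other droplet and lipase genes, the lysosomal lipase Lipa rose at day 4 (1.45) and the droplet protein gene Cideb at day 10 (1.32), and 0 fell in any comparison. Over all genes, 3.42% rose and 2.11% fell at day 4, and 4.83% and 9.4% at day 10. Abhd12, a lysophospholipid lipase, stood at 0.99 at day 4, just short of the limit, and passed after quantile normalization (1.049).

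Of the 3 PPAR genes, 1 rose at day 4 and 0 at day 10, where 3.42% and 4.83% of all genes rose. Pparg, the receptor that drives lipid storage and macrophage lipid handling, read 5.83, 5.71 and 5.87 before IL-5, 7.14, 7.30 and 7.59 at day 4 and 5.68, 5.67 and 5.87 at day 10. The day 4 arrays lay more than 1 above all others, and those before IL-5 and at day 10 overlapped. It rose 2.91-fold at day 4, a log2 change of 1.54 ± 0.12 (SE) (limma adjusted p = 1.17e-06), and changed by -1.60 ± 0.12 (SE) from day 4 to day 10 (adjusted p = 5.71e-07). Ppard was at 6.84 ± 0.16 (SD, n = 3) before IL-5 and 7.24 ± 0.053 (SD, n = 3) and 7.24 ± 0.097 (SD, n = 3) after, a difference of 0.40 at day 10 that passed adjusted p alone (0.00813). Ppara, which drives fatty acid oxidation in liver, was at 4.96, 4.83 and 5.08, and did not pass the fold limit in any comparison. Among 13 other PPAR partners and targets, 2 rose and 1 fell at day 10, where 4.83% of all genes rose and 9.4% fell. The retinoid X receptors are the obligate partners of PPARs. Rxra read 6.37, 6.55 and 6.41 before IL-5, 6.69, 6.74 and 6.54 at day 4 and 9.22, 8.85 and 8.78 at day 10. It rose by 2.50 ± 0.12 (SE) at day 10 (limma adjusted p = 4.9e-09). Rxrb, with means of 8.22, 7.90 and 7.96 at the 3 times, and Rxrg, with 4.49, 4.43 and 4.39, did not pass in any comparison. Ncoa3 (1.09) rose as well, and the coactivator Pprc1 (-1.29) fell.

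Uptake genes included the largest changes of the wider pathway. At day 4, 3 of 18 rose (Cd36, Lpl and Lipg) and 0 fell, where 3.42% of all genes rose and 2.11% fell. At day 10, 3 rose (Cd36, Lipg and Slc27a4) and 0 fell, where 4.83% of all genes rose and 9.4% fell. The scavenger receptor Cd36, which takes up fatty acids and oxidised lipoprotein, read 5.66, 6.00 and 5.89 before IL-5, 9.98, 9.94 and 9.97 at day 4 and 7.18, 6.65 and 7.99 at day 10. Lipoprotein lipase (Lpl), which frees fatty acids from lipoproteins, read 6.46, 6.51 and 6.71 before IL-5, 10.30, 10.30 and 10.33 at day 4 and 6.93, 6.70 and 7.13 at day 10. Both were highest at day 4, and of the day 10 arrays replicate 3 was highest for both. They rose at day 4 by 4.11 and 3.75 over the start, and fell by day 10 against day 4 (changes of -2.69 and -3.39). Cd36 also rose at day 10 against the start (1.42), whereas Lpl, at 0.36, did not. The endothelial lipase Lipg kept rising, by 4.07 at day 4 and 5.61 at day 10. The fatty acid transport protein Slc27a4 read 7.41, 7.29 and 7.43 before IL-5, 8.14, 8.12 and 8.06 at day 4 and 9.90, 9.94 and 9.75 at day 10, and rose by 2.49 ± 0.096 (SE) at day 10 (limma adjusted p = 5.74e-10). Slc27a1 fell between the days (-1.39).

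**Figure D3:**
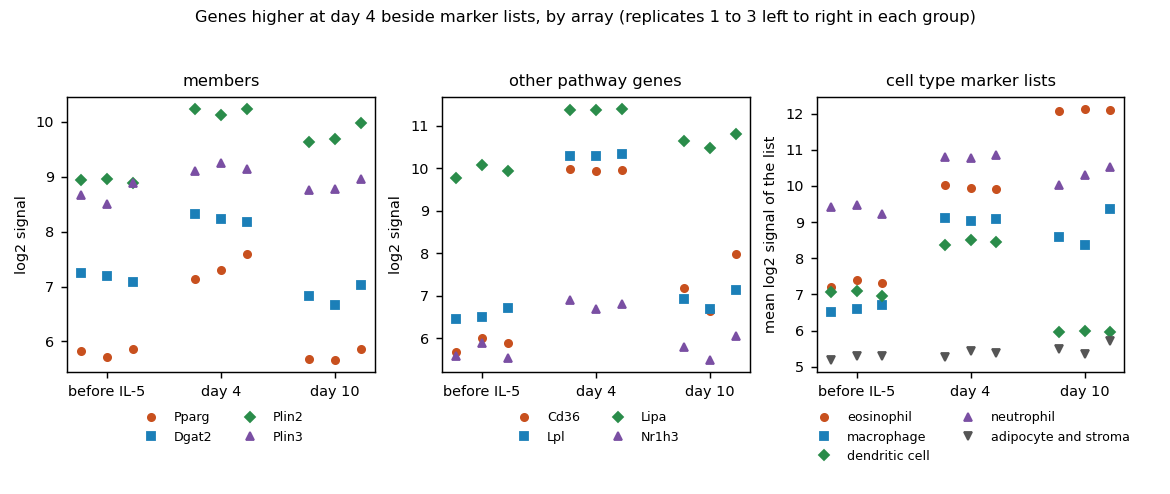
Log2 signal by array (y axis) of 4 members and 4 other pathway genes that were higher at day 4, beside the mean log2 signal of 5 cell type marker lists, with replicates 1 to 3 left to right in each group on the x axis. The dendritic cell list is highest at day 4 and lowest at day 10, the macrophage list is high at both days, and the adipocyte and stroma list stays between 5.19 and 5.71.

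Pparg, Dgat2 and Plin2 were high at the time when many markers of macrophages, dendritic cells and neutrophils were high. At day 4, where 3.42% of all genes rose, 10 of 11 macrophage markers rose, all but Marco, with 2.92 for Adgre1 and 1.32 for Csf1r. Of 10 dendritic cell markers, 5 rose then, with 3.18 for Ccr7, while Itgax (0.89) and Flt3 (-0.09) did not pass. At day 10 the dendritic list was at 5.95 to 6.00, below its level before IL-5, and the macrophage list was at 8.38 to 9.36. From day 4 to day 10, 1 macrophage marker, Adgre1, rose (1.32), as did 3 of 6 eosinophil markers, and 1, Fcgr1, fell (-1.49). Adgre1 thus kept rising, as eosinophil markers did, and is part of the macrophage mean at day 10. Neutrophil markers were at 10.76 to 10.87 at day 4, against 9.21 to 9.46 before IL-5 and 10.03 to 10.52 at day 10. Of these 11 markers, 8 rose and 0 fell at day 4. From day 4 to day 10, where 2.44% of all genes rose and 3.98% fell, Ly6g (1.14) and Retnlg (1.87) rose. Another 6 neutrophil markers fell between these days, among them Camp (-2.20) and Ltf (-1.97). The part of these cells in the day 4 values of the members was not tested. Of 13 measured adipocyte and stroma markers, 0 rose at day 4 and Col1a2 rose at day 10. Of the adipocyte genes, Adipoq (3.91, 3.85 and 3.79), Lep and Fabp4 had means under the lower quartile of gene means at all 3 times, whereas Plin1 (5.69, 5.42 and 5.65) and Retn (5.00, 4.89 and 5.36) lay above it. Retn was 0.36 higher at day 10 (limma adjusted p = 0.0132), under the fold limit. Beside the lower values of the oxidation genes, markers of other cells fell at day 4, where 2.11% of all genes fell. These were 7 of 9 erythroid, 7 of 7 B cell, 6 of 8 stem and progenitor and 1 of 8 mast cell and basophil. At day 10, where 9.4% of all genes fell, 8 of 9, 7 of 7, 7 of 8 and 4 of 8 did in that order. Their part in those values was not tested either.

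Assembly of membrane glycerolipids moved in both directions at day 10, with 5 of 21 genes rising and 3 falling. Lpcat2, an acyltransferase that also makes platelet-activating factor, read 8.46, 8.49 and 8.44 before IL-5, 9.66, 9.68 and 9.60 at day 4 and 11.26, 11.09 and 11.26 at day 10, and rose 6.69-fold at day 10 (log2 change of 2.74 ± 0.093 (SE), limma adjusted p = 1.79e-10). The lysophospholipid acyltransferases Mboat1 (2.54) and Lpcat3 (1.83), the latter known to place arachidonic acid in membranes, the monoacylglycerol acyltransferase Mogat2 (1.85) and Agpat4 (1.83) rose too. Gpam, the mitochondrial enzyme that opens glycerolipid synthesis, read 8.02, 8.27 and 8.18 before IL-5, 7.05, 6.93 and 6.87 at day 4 and 6.37, 6.24 and 6.44 at day 10, and fell at day 10 with a log2 change of -1.81 ± 0.11 (SE) (adjusted p = 2.13e-08). Mboat2 (-1.21) and Lpcat1 (-1.22) fell as well, and Gpam (-1.21) and Mboat2 (-1.22) already at day 4. Over all 7 lists of other pathway genes, 40 of 141 measured genes passed in at least 1 comparison, where 16.9% of all genes did. At day 10, 16 of the 141 rose and 20 fell, where 4.83% of all genes rose and 9.4% fell.

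**Figure D4:**
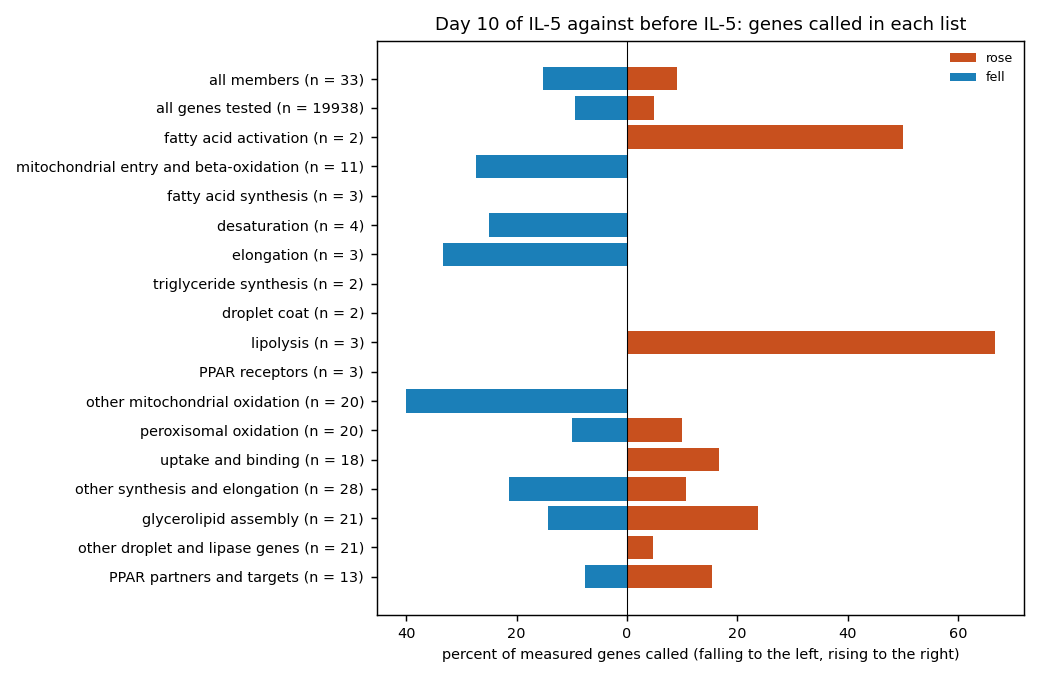
Percent of measured genes that rose (orange, right) or fell (blue, left) at day 10 against before IL-5 in each role group of the members and each list of other pathway genes, with the number measured, beside all genes tested. In the values as deposited, mitochondrial oxidation lists show falls and no rises (Acadsb rose after quantile normalization), and lipolysis and uptake lists show rises and no falls; role groups of 2 or 3 genes move in large steps.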

How the data were processed

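For the 9 arrays the authors deposited log2 signals of 35557 probe sets, made with Affymetrix Expression Console 1.1.2637.26569 per the submitters' processing notes; the descriptions in the labels name its default gene-level RMA. Background and normalization settings, and the array's genome build, are not stated in the labels or notes used here. RMA in general compresses the changes of dim genes. Probe sets naming 1 gene (21789) were kept, and the brightest of each gene, giving 19938 genes. Group means were fitted with limma 3.58.1 (lmFit, eBayes, R 4.3.3, no covariate, all 9 arrays). Tested on simulated arrays of 19938 genes, this recovered 99% or more of genes planted with a log2 change of 1.5 in each of the 3 comparisons. Changes nearer the limit of 1, such as those of Lipe, Dgat2 and Echs1, were not planted, so their recovery is not known. Every member is reported. Of other lists, the genes called are named, up to 4 in each direction. Lpcat3, Abhd5, G0s2, Abhd12, Acadsb and the windows of Plin2 and Hadhb were added after their values were seen. Rxrb and Rxrg, which were not called, are given beside Rxra. The members and lists were chosen with earlier results of these data known. Alternatives were quantile normalization, median subtraction, a filter on dim genes, averaged probe sets, trended robust eBayes, 2-group fits, no fold limit, a replicate block and each array left out. The number of arrays limits the precision.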

Additional observations from a re-analysis of the deposited data

How the results depend on the processing

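Without the 2-fold limit, the count of all genes past the test went from 1102 to 6279 at day 4, from 2839 to 8440 at day 10 and from 1281 to 6364 between the days, and that of members from 3 to 19, from 8 to 24 and from 5 to 21. Under every other alternative, arrays left out included, these counts stayed within 1.5 times. Of 1584 member values over 16 settings, 7 lost a call (Lipe and Fads1), 4 gained one (Acsl4, Acsl5 and Elovl6) and 0 called values changed sign; 29 uncalled values did. With replicate numbers as a block, 1103, 2842 and 1282 genes and 3, 8 and 5 members passed; deviations of same-numbered arrays correlated at -0.12 to 0.08 and 0 of 9 arrays correlated best with its own number, so the numbers were not taken as pairs. The sample descriptions number some arrays otherwise than the titles do. The block and the correlations used the title numbers only, so pairing by the description numbers was not tested. Changes of dim genes are compressed, which limits what can be seen of them.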
